A study of Homo sapiens with 3 samples.

Results

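The nuclear genes for subunits of the oxidative phosphorylation machinery were examined for peaks of histone H3 trimethylated at lysine 4 (H3K4me3) and acetylated at lysine 27 (H3K27ac) at their starts. Members were chosen by symbol among the protein-coding genes. The symbols were NDUFA, NDUFB, NDUFC, NDUFS or NDUFV followed by a number alone, SDHA to SDHD, those that begin with UQCR or ATP5, and those of the COX4 to COX8 families whose number is followed by the letter A, B or C, which no COX4 gene fits. This gave 85 genes of 20163 protein-coding genes in the annotation, with 36 of complex I, 4 of complex II, 9 of complex III, 16 of complex IV and 20 of complex V. NDUFA4 was placed in complex IV, where its product is known to belong. The members of complex V include the inhibitor ATP5IF1, the read-through gene ATP5MF-PTCD1 and the gene copy ATP5MGL.

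Oxidative phosphorylation takes place in the inner mitochondrial membrane. Complexes I and II pass electrons from NADH and succinate to ubiquinone, complex III passes them on to cytochrome c and complex IV to oxygen, and complexes I, III and IV pump protons. Complex V, the ATP synthase, uses the proton gradient to make ATP. A small set of subunits is encoded by mitochondrial DNA and all others by nuclear genes, which are transcribed in nearly every cell. Promoters of active genes commonly carry H3K4me3 and H3K27ac beside a nucleosome-poor start. NRF1, the ETS family factor GABP and YY1 are known activators of nuclear genes for respiratory subunits.

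The series comprised 3 ChIP-seq libraries of H2087, an established lung adenocarcinoma cell line that was left untreated. The libraries were 1 for H3K4me3 (antibody ab8580), 1 for H3K27ac (antibody ab4729) and 1 input, and the input was not analysed here. All values describe a single cell line with 1 library per mark, so there is no replicate and no test was made. The sequencing depth is unknown from the peak lists, and a start without a peak cannot be told from one with too few reads. The range in brackets after a share is its 95% interval by the exact method of Clopper and Pearson and takes account of counting error alone.

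The label of the line was set beside 13 lung epithelial marker genes, of which 8 had a peak of either mark within 1 kb of the start, beside 43.2% of all protein-coding starts. Keratin genes KRT7 and KRT18 and the lung transcription factor gene NKX2-1 carried both marks. No peak of either mark lay at NAPSA, SFTPA1, SFTPA2, SFTPB or SFTPC, which are genes of differentiated alveolar cells, while SFTPD, a further surfactant protein gene, had H3K4me3 alone. Of the markers of other cell types, 0 of 4 squamous, 0 of 4 neuroendocrine and 0 of 4 fibroblast or endothelial genes were marked, and 1 of 3 blood genes (CD68, H3K27ac alone).

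The promoter sequences of 3 members show the words to which the results below return. They are the 250 bases before the gene start in hg19, read 5′ to 3′ on the strand of the gene, with matches to GCATGCGC (the core of the NRF1 motif) and CCGGAAG (the core of the ETS motif), on either strand, in capitals. COX5B, a complex IV subunit gene, holds both words and had H3K4me3 peaks on either side of its start. NDUFB4, of the membrane arm of complex I, holds the NRF1 word in both orientations, overlapping, and had a narrow peak of each mark. SDHB, the iron-sulphur subunit gene of complex II, holds both words and had no peak of either mark within 1 kb.
COX5B (chr2:98262275-98262524, + strand): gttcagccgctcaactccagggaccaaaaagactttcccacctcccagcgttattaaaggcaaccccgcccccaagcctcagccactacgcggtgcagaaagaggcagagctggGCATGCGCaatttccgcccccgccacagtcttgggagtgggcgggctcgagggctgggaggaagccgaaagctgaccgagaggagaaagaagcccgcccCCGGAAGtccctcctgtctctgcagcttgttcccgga
NDUFB4 (chr3:120314925-120315174, + strand): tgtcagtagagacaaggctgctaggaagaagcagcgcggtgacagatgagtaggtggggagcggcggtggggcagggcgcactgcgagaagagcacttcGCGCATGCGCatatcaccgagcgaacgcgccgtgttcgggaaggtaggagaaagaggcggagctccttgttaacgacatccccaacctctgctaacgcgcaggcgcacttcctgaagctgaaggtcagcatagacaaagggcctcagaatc
SDHB (chr1:17380528-17380777, - strand): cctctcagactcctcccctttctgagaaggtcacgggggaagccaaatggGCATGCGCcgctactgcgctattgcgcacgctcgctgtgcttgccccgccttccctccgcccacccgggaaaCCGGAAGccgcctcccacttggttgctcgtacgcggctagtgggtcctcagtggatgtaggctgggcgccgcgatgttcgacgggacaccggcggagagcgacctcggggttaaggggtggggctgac

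H3K4me3 was found at more starts than H3K27ac, both among the respiratory subunit genes and over all protein-coding genes. The depth of the libraries is unknown, so the shares of H3K4me3 and H3K27ac cannot be weighed against each other. A peak edge lay within 1 kb of the gene start, taken as the outermost 5′ base of its annotation, at 48 of the 85 members for H3K4me3. This is 56.5% (45.3 to 67.2), beside 38.2% of all protein-coding starts. With a limit of 500 bp the share was 41.2%, beside 30.8%. H3K27ac was present at 32 members, or 37.6% (27.4 to 48.8), beside 23.6% of all starts. Both marks were present at 26 members, or 30.6% (21.0 to 41.5), beside 18.6%. H3K4me3 alone was present at 22 members, or 25.9% (17.0 to 36.5), beside 19.6%. H3K27ac alone was present at 6 members, or 7.06% (2.63 to 14.7), beside 4.99%. Neither mark was present at 31 members, or 36.5% (26.3 to 47.6), beside 56.8% of all starts. Of the members with H3K4me3, 54.2% (39.2 to 68.6) also had H3K27ac, beside 48.6% over all genes, and of those without it 16.2% (6.19 to 32.0), beside 8.08%.

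**Figure D1:**
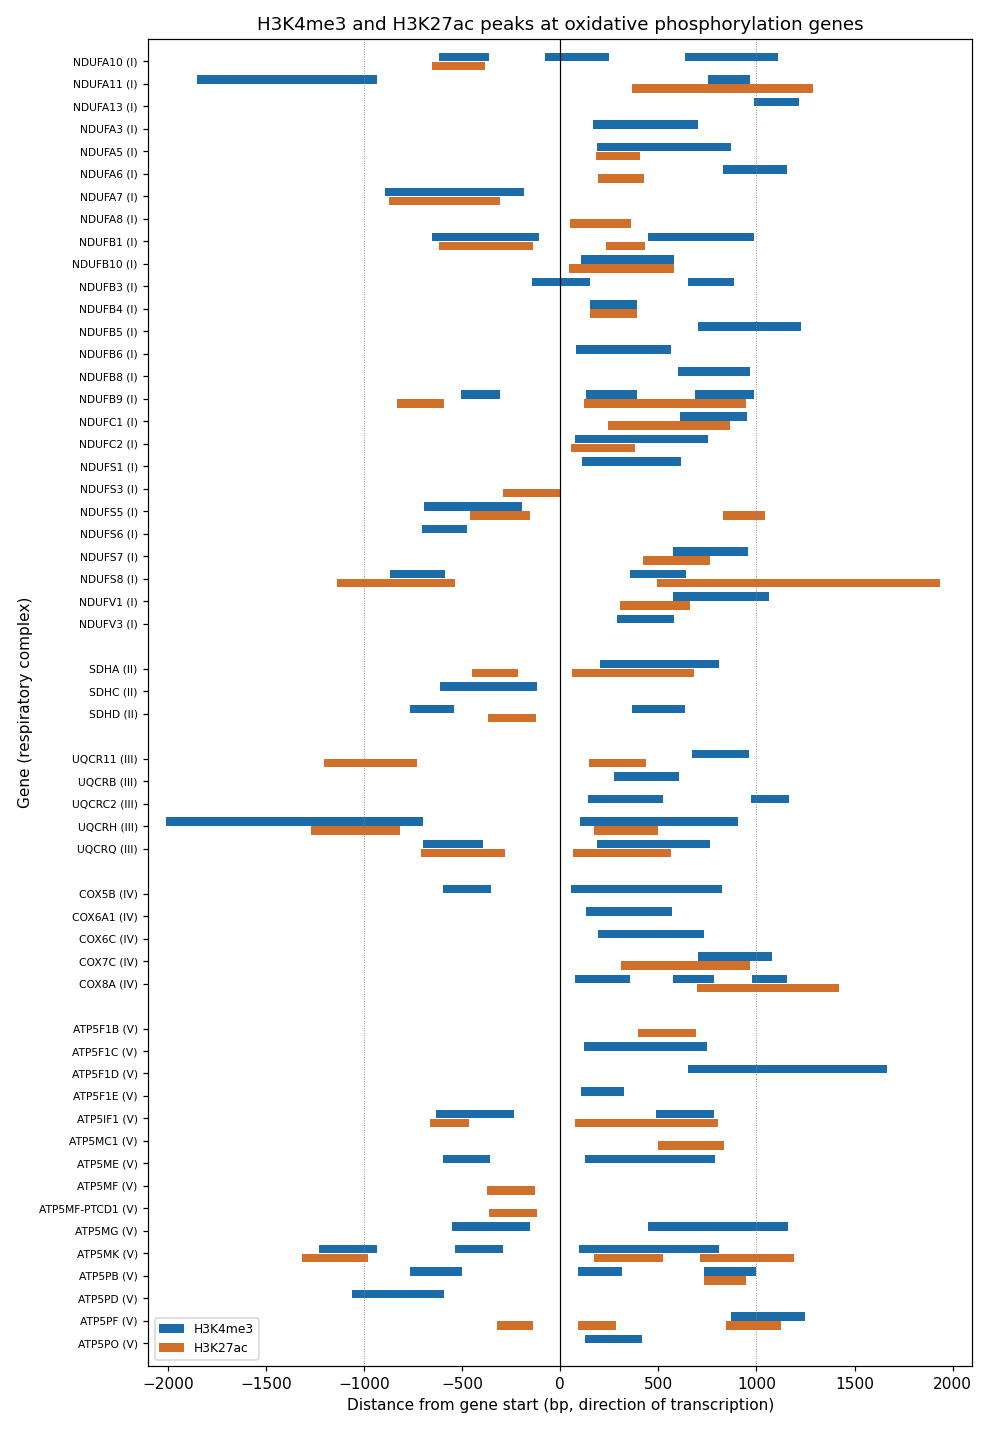
Peaks around the start of each marked subunit gene, by complex, with the distance from the gene start in bp on the horizontal axis (downstream positive) and 1 line per gene. Bars are the peaks of H3K4me3 (blue) and H3K27ac (orange) whose edge is within 1 kb (dotted lines); most lie on either side of the start and 2 H3K4me3 peaks, at NDUFA10 and NDUFB3, cover it.

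The shares of 3 other groups of housekeeping genes had intervals that overlap those of the respiratory genes. Among 78 mitochondrial ribosomal protein genes, 60.3% (48.5 to 71.2) had H3K4me3 and 37.2% (26.5 to 48.9) H3K27ac. Among 87 cytosolic ribosomal protein genes the shares were 63.2% (52.2 to 73.3) and 48.3% (37.4 to 59.2), and among 48 proteasome subunit genes 62.5% (47.4 to 76.0) and 41.7% (27.6 to 56.8). The difference between the respiratory genes and these groups was not tested.

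Complex I, which oxidises NADH, had H3K4me3 at 24 of 36 starts, or 66.7% (49.0 to 81.4), and H3K27ac at 17, or 47.2% (30.4 to 64.5). Over all protein-coding starts the shares were 38.2% and 23.6%. Both marks were present at 15 of the 36 complex I starts, or 41.7% (25.5 to 59.2), beside 18.6% of all starts. Among the core subunits encoded in the nucleus, NDUFV1 (which binds NADH), NDUFS7 and NDUFS8 had both marks, NDUFS1 had H3K4me3 alone, NDUFS3 had H3K27ac alone, and NDUFV2 had neither. The strength of a peak is given as the −log10 q of the deposited list and as its percentile, the percent of the peaks in the same list with a lower value. NDUFV1 had a −log10 q of 3.37 for H3K4me3 and 3.19 for H3K27ac. NDUFS7 had 2.49 for H3K4me3 and 5.12 for H3K27ac, a percentile of 34.9 in the first list and 91.6 in the second. NDUFS8 had the widest H3K27ac peak of any member, 1443 bp over exons 2 to 3 of the gene, with a −log10 q of 3.4, and a further H3K27ac peak upstream with 4.68. NDUFS1 had an H3K4me3 peak of 504 bp over exon 1 with 4.6. The H3K27ac peak assigned to NDUFS3 ended 4 bp before the outer start with the lowest H3K27ac value of any marked member, 1.34, and the outer start lies 13738 bp from that of the canonical transcript. CELF1 starts 233 bp away on the opposite strand.

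Among the accessory subunit genes of complex I were the members with the highest −log10 q of each mark. NDUFB5 had the highest H3K4me3 value of the members, 9.53 (percentile 98.5), in a 525-bp peak at chr3:179323182-179323706, 704 to 1228 bp downstream of the start and inside the gene, and no H3K27ac. NDUFB10 was among the 3 highest members for each mark, with 8.06 for H3K4me3 and 6.62 for H3K27ac, and its peaks lay together over exon 1 (chr16:2009643-2010119 and chr16:2009585-2010119). NDUFA10 had an H3K4me3 value of 6.9 in a peak from -79 to 247 bp across the outer start. NDUFB9 had the highest H3K27ac value of the members, 8.09 (percentile 99.0), in a peak of 824 bp over exon 1. Its 3 H3K4me3 peaks reached only 2.93 (percentile 44.9). NDUFB9 had 5 peaks of both marks in all, and NDUFA10, NDUFB1, NDUFS8, UQCRH, UQCRQ, COX8A, ATP5IF1, ATP5PB and ATP5PF had 4 each. NDUFA11 carried one of the 3 widest peaks for both marks, 919 bp for H3K4me3 upstream of the start and 925 bp for H3K27ac over exon 1. NDUFB1 had an H3K27ac value of 5.12. At the other end, NDUFS5 had the lowest H3K4me3 value of the marked members, 1.34, beside an H3K27ac value of 4.01. NDUFB4 had peaks of 241 bp for H3K4me3 and 239 bp for H3K27ac that both began 152 bp downstream of the start, at chr3:120315327, each with a −log10 q of 1.55.

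The other complex I genes with both marks were NDUFA5, NDUFA6, NDUFA7, NDUFC1 and NDUFC2. H3K4me3 alone was found at NDUFA3, NDUFA13, NDUFB3, NDUFB5, NDUFB6, NDUFB8, NDUFS1, NDUFS6 and NDUFV3. H3K27ac alone was found at NDUFS3 and at NDUFA8, where the value was 4.32 in a 312-bp peak over exon 1. Among the complex I genes without a peak were NDUFA1, NDUFA2, NDUFA9, NDUFA12, NDUFB2, NDUFB7, NDUFB11, NDUFS4 and NDUFV2.

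Complex II, succinate dehydrogenase, has 4 subunits, all encoded in the nucleus. SDHA, the flavoprotein subunit that oxidises succinate, had an H3K4me3 value of 3.8 in a 607-bp peak and an H3K27ac value of 3.04. SDHD, a membrane anchor, had an H3K4me3 value of 2.26 and an H3K27ac value of 4.72 (percentile 89.7) at different places. SDHC, the other membrane anchor, had only an H3K4me3 peak upstream, with 1.98. SDHB had no peak within 1 kb, and the nearest H3K27ac peak lay 1423 bp away.

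Complex III had H3K4me3 at 5 of 9 starts, or 55.6% (21.2 to 86.3), and H3K27ac at 3, or 33.3% (7.49 to 70.1). Both intervals include the shares of all protein-coding starts, 38.2% and 23.6%. Of its core subunits, UQCRC2 had H3K4me3 with a value of 6.39 (percentile 92.1) over exon 1, while UQCRC1 and the iron-sulphur subunit gene UQCRFS1 had no peak of either mark. UQCRH, the hinge protein gene, had an H3K4me3 peak over exon 1 with 6.39 and an upstream one of 1313 bp with 3 summits, the widest H3K4me3 peak of the members, which ran from -2012 to -700 bp. UQCRH and UQCRQ, a small subunit gene, had 2 peaks of each mark. UQCR11 had both marks, UQCRB had H3K4me3 alone, and UQCR10 and the gene copy UQCRHL had neither.

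Complex IV, cytochrome c oxidase, had the lowest shares of the 5 complexes, with H3K4me3 at 5 of 16 starts, or 31.2% (11.0 to 58.7), and H3K27ac at 2, or 12.5% (1.55 to 38.3). These intervals include the shares of all protein-coding starts, 38.2% and 23.6%. They also overlap those of complex I, and the difference was not tested. By symbol alone, with NDUFA4 in complex I, the shares were 33.3% and 13.3%. COX8A had 3 H3K4me3 peaks with values up to 5.5 and an H3K27ac peak of 721 bp with 6.73 (percentile 97.4). COX7C had an H3K4me3 value of 6.39 and an H3K27ac value of 4.39. COX5B had H3K4me3 alone, with 5.14 in a 767-bp peak over exon 1 and 2.17 in a peak from -598 to -353 bp. COX6A1 had an H3K4me3 value of 3.38 and COX6C one of 1.75. No peak lay at COX5A, COX6A2, COX6B1, COX6B2, COX7A1, COX7A2, COX7A2L, COX7B, COX7B2, COX8C or NDUFA4. Of these, COX6A2 and COX7A1 are known as the heart and muscle forms, and COX6B2, COX7B2 and COX8C as forms of the testis.

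The isoform pairs followed 2 patterns. COX6A1, COX8A and UQCRH were marked and their counterparts COX6A2, COX8C and UQCRHL were not, while in the pairs of COX6B1 and COX6B2, COX7A2 and COX7A1, and COX7B and COX7B2 neither gene was marked. Of the 6 tissue-restricted forms and copies in these pairs, COX6A2, COX6B2, COX7A1, COX7B2, COX8C and UQCRHL, 0 had a peak of either mark. For each mark this allows a share of up to 45.9%, beside 38.2% of all protein-coding starts for H3K4me3 and 23.6% for H3K27ac. The copy ATP5MGL, which is not counted among them, had no peak. Without the 6, H3K4me3 was present at 48 of 79 members (60.8%), H3K27ac at 32 (40.5%) and both at 26 (32.9%). Leaving out unmarked genes alone raises these shares by construction, and no such genes were left out of the shares over all genes.

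Complex V had H3K4me3 at 11 of 20 starts, or 55.0% (31.5 to 76.9), and H3K27ac at 8, or 40.0% (19.1 to 63.9). Both intervals include the shares of all protein-coding starts, 38.2% and 23.6%. The 2 marks were present together at 4, or 20.0% (5.73 to 43.7), beside 18.6% of all starts. Of the catalytic F1 head, the gene of the beta subunit, ATP5F1B, had H3K27ac alone with a value of 1.94. The genes of the central stalk, ATP5F1C (2.97), ATP5F1D (4.54, in a peak of 1011 bp) and ATP5F1E (2.97), had H3K4me3 alone, and the gene of the alpha subunit, ATP5F1A, had neither mark. ATP5MC1, ATP5MC2 and ATP5MC3 encode the same mature subunit of the rotor ring, and of these ATP5MC1 alone had a peak, of H3K27ac with 2.82. ATP5MG, of the membrane part, had the second highest H3K4me3 value of the members, 8.33 (percentile 97.2), in a peak from -550 to -154 bp, and no H3K27ac. ATP5MF had an H3K27ac value of 5.13 in a 244-bp upstream peak without H3K4me3, and the read-through gene ATP5MF-PTCD1, which starts 11 bp away, shares that peak. ATP5MK had the most peaks of any member, 3 of each mark. ATP5IF1, the inhibitor of ATP synthase, had both marks on either side of its start, with 6.3 for H3K4me3 and 4.32 for H3K27ac.

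ATP5PB and ATP5PF, of the peripheral stalk, had both marks, and ATP5PD and ATP5PO, of the same stalk, had H3K4me3 alone, with 6.39 and 2.49. ATP5ME also had H3K4me3 alone. No peak lay at ATP5MGL or ATP5MJ.

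**Figure D2:**
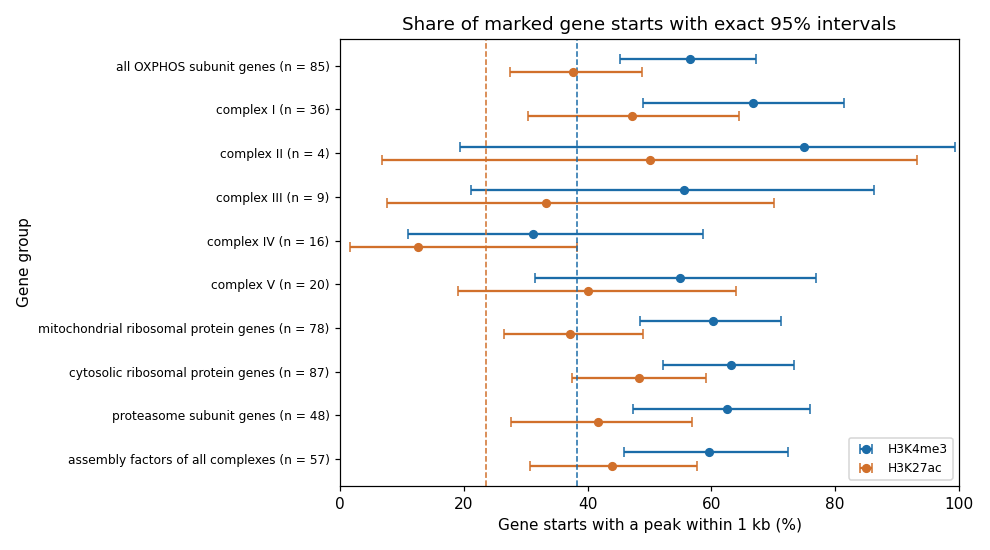
Share of gene starts with an H3K4me3 (blue) or H3K27ac (orange) peak within 1 kb (percent, horizontal axis) for all members, the 5 complexes and the other gene groups. Error bars are exact 95% intervals and dashed lines the shares of all protein-coding starts; complex IV is lowest with 31.2% and 12.5%, and the intervals of the complexes overlap.

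The members on chromosomes X and 18 were all without a peak. These are NDUFA1, NDUFB11 and COX7B on X and NDUFV2 and ATP5F1A on 18, 0 of 5, which allows a share of up to 52.2%. Among all genes, H3K4me3 was present at 3.45% of the starts on X and 10.9% on 18. Without these members, H3K4me3 was present at 60.0% and H3K27ac at 40.0% of 80 genes. The shares over all genes, 38.2% and 23.6%, also rise without the 2 chromosomes, whose genes together had 5.2% and 2.29%. Of the 12 members on chromosome 19, 7 had H3K4me3 (58.3%), beside 30.9% of all genes there.

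The nearest peaks on either side of the limit were close to it for a few members. NDUFA13, with an H3K4me3 edge at 987 bp, was counted and NDUFB7, at 1001 bp, was not. COX5A followed at 1113 bp and UQCRC1 at 1376 bp. For H3K27ac the last members inside were COX8A at 699 bp and ATP5PB at 730 bp, and the first outside were ATP5F1D at 1070 bp and SDHB at 1423 bp. The median distance to the nearest H3K4me3 peak was 43.6 kb for the 37 members without one, and 24.1 kb for H3K27ac over 53.

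The choice of start changed the state of some members. With the start of the canonical transcript, NDUFB2 and ATP5MC2 had both marks, NDUFV3 gained H3K27ac, and UQCRC1, COX7A2L and ATP5MJ had H3K4me3 alone, while NDUFS3 lost its H3K27ac peak. The canonical start of COX7A2L lies 63871 bp downstream of the outer start and that of NDUFV3 13665 bp. For ATP5MJ the distance is 6740 bp, for NDUFB2 5931 bp and for UQCRC1 1330 bp. The shares with this start were 62.4% for H3K4me3, beside 41.3% of all genes, and 40.0% for H3K27ac, beside 25.2%.

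The best peaks of most marked members were of middling to high rank in their lists. The lowest percentiles were 0.748 for H3K4me3 (NDUFS5) and 0.598 for H3K27ac (NDUFS3). The median of the best H3K4me3 value per marked member was 4.0 (interquartile range 2.96 to 5.23), beside 3.76 over all marked starts, at a median percentile of 71.9 beside 65.6. For H3K27ac it was 4.15 (2.82 to 4.69) beside 3.05, at a percentile of 83.2 beside 63.1. With a limit of 500 bp the H3K27ac percentile of the members was 71.4. The best value was taken where a start had several peaks, and 34.4% of the members with H3K27ac had more than 1 such peak, beside 20.5% of all marked starts. The widest H3K4me3 peak per gene had a median of 474 bp (298 to 582) beside 411 bp, and for H3K27ac 350 bp (279 to 578) beside 327 bp. The same −log10 q values recur at different genes (4.6 for H3K4me3 at NDUFA5, NDUFB1, NDUFB3 and NDUFS1), since q values in the lists are tied, and a rank between such genes has no meaning.

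**Figure D3:**
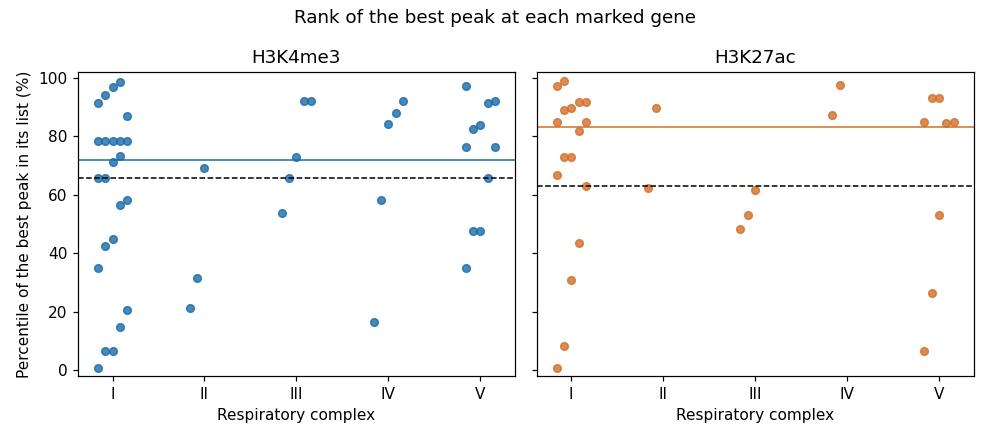
Percentile of the best peak of each marked member in its list (vertical axis, percent of the list's peaks with a lower −log10 q), by complex, for H3K4me3 and H3K27ac. Points are genes, solid lines the medians of the members (71.9 for H3K4me3 and 83.2 for H3K27ac) and dashed lines those of all marked starts (65.6 and 63.1); NDUFB5 (98.5) and NDUFB9 (99.0) are at the top.

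The peaks flanked the starts. For H3K4me3, 50 of 70 peak centres lay downstream, or 71.4% (59.4 to 81.6), beside 70.3% over all genes. The bin from 400 to 600 bp held 15 centres (21.4%) and the bin from -600 to -400 bp held 10, while 0 lay between -200 and 0 bp, beside 2.5% over all genes. The peak covered the start at 2 of 48 members with H3K4me3 (4.17%), beside 8.64% of all marked starts, and peaks lay on both sides at 14 (29.2%, 17.0 to 44.1), beside 19.8%. Positions are from the outer start. At the 2 members, NDUFA10 and NDUFB3, the canonical start lies 401 and 568 bp downstream of it, outside their H3K4me3 peaks. For H3K27ac, 28 of 45 centres lay downstream, or 62.2% (46.5 to 76.2), beside 65.8%, and 12 of them were in the bin from 200 to 400 bp. No H3K27ac peak covered a start, 0 of 32, which allows up to 10.9%, beside 6.23% of all marked starts. Peaks of H3K27ac lay on both sides at 11 of 32 members (34.4%), beside 15.2%. Where both marks were present, a peak of each overlapped by at least 1 bp at 23 of 26 members, or 88.5% (69.8 to 97.6), beside 83.6% of all starts with both. The exceptions were NDUFA6, SDHD and UQCR11, where the marks occupied different stretches.

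**Figure D4:**
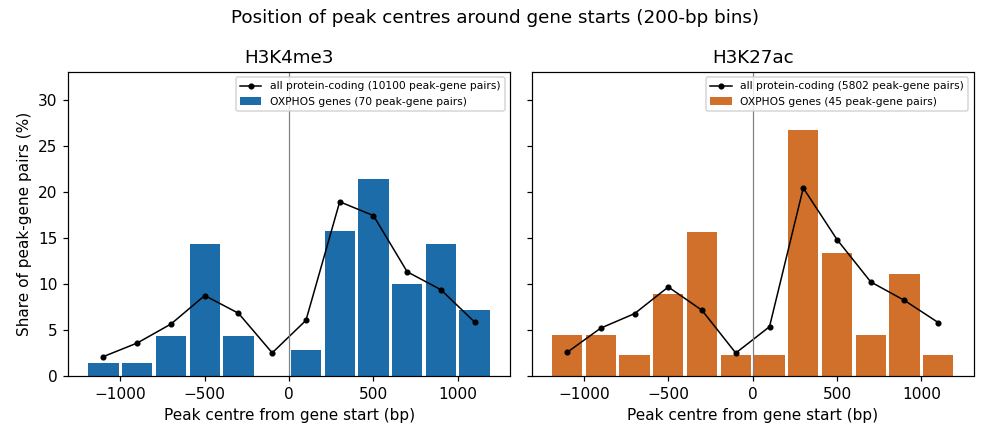
Position of peak centres relative to the gene start in bins of 200 bp, with the share of peak-gene pairs in percent on the vertical axis. Bars are the respiratory subunit genes (70 pairs for H3K4me3 and 45 for H3K27ac), lines are all protein-coding genes; both dip at the start, and the highest bar is 21.4% at 400 to 600 bp for H3K4me3 and 26.7% at 200 to 400 bp for H3K27ac.

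Some members start close to a gene on the opposite strand. A protein-coding start on the opposite strand lay within 1 kb of 30 of the 85 members, or 35.3% (25.2 to 46.4), beside 13.3% of all protein-coding genes. The partner could start upstream or downstream of the member, so pairs that overlap at their starts were counted with divergent pairs. Of these, 20 had H3K4me3, or 66.7% (47.2 to 82.7), and 12 had H3K27ac (40.0%), beside 65.0% and 40.9% of all genes with such a partner. Of the 55 members without a partner, 28 had H3K4me3 (50.9%) and 20 H3K27ac (36.4%), beside 34.1% and 20.9% of all genes without one. SDHD starts 26 bp from TIMM8B, a mitochondrial import gene, and NDUFB5 and NDUFS6 each start 41 bp from a mitochondrial ribosomal protein gene, MRPL47 and MRPL36. Of the 20 with H3K4me3, 9 had peaks centred downstream of their own start only, 2 upstream only and 9 on both sides. On which side of the member the partner starts was not taken into account. At NDUFA7, which starts 217 bp from RPS28, the peaks of both marks lay only upstream of the start of NDUFA7. At NDUFS6 the H3K4me3 peak lay upstream of its start. A peak between such starts cannot be assigned to either gene from these lists.

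Short words in the promoters were counted in 300 bases, from 250 bases before the gene start through the first 50 bases of the gene, on both strands. These are matches of letters in the reference and not measured binding. The NRF1 word GCATGCGC, which overlaps itself on the opposite strand in some sites, occurred in 13 of 85 members, or 15.3% (8.4 to 24.7), beside 3.76% of all protein-coding promoters. The ETS word CCGGAAG occurred in 18, or 21.2% (13.1 to 31.4), beside 11.8%. Either word occurred in 27 (31.8%), beside 14.8%, and both occurred in SDHB, SDHD, COX5B and COX6A1 (4.71%), beside 0.794%. The NRF1 word was present in 11 of the 48 members with H3K4me3 (22.9%, 12.0 to 37.3) and in 2 of the 37 without (5.41%, 0.661 to 18.2), beside 5.1% and 2.94% of all promoters with and without this mark. The ETS word was present in 13 of the members with H3K4me3 (27.1%, 15.3 to 41.8) and in 5 of those without (13.5%, 4.54 to 28.8), beside 18% and 7.95% of all promoters. The other 2 words of activators were AAGATGGCG for YY1, in 5 members (5.88%, beside 1.86%), and TGACGTCA for the cyclic AMP response element, in 3 (3.53%, beside 2.29%). Of the general promoter words, the CCAAT box (CCAAT) was found in 31.8% of members, beside 35.8% of all promoters. The GC box (GGGCGG) was found in 52.9%, beside 52.1%, and the TATA word (TATAAA) in 12.9%, beside 10.9%. The NRF1 word in 10 other members and the ETS word in 5 members, which were chosen as examples after their values were seen, follow in 30-base stretches, on the strand of each gene with the word in capitals, and a word on the opposite strand reads as GCGCATGC for NRF1 or, for the ETS family, as CTTCCGG.
NDUFA5 (chr7:123198012-123198041, - strand): gtatgcccatcGCGCATGCgtcaatttttc
NDUFA6 (chr22:42486924-42486953, - strand): tctgtagatgaGCATGCGCagcacccaccg
NDUFA8 (chr9:124922044-124922073, - strand): tgttgccggatGCGCATGCgcaggcgccgt
NDUFS6 (chr5:1801464-1801493, + strand): ccagaagccgtGCGCATGCgttagcgctaa
NDUFV3 (chr21:44299708-44299737, + strand): ccccacgtaccGCGCATGCtcaaggacgag
SDHD (chr11:111957476-111957505, + strand): cagctgtgtttGCGCATGCgcgacgggtgt
COX6A1 (chr12:120875687-120875716, + strand): ggagggcacacGCATGCGCacgaaggaaac
ATP5F1C (chr10:7830107-7830136, + strand): ggggagcttcgGCGCATGCgcgctgaggcc
ATP5ME (chr4:668125-668154, - strand): cgccgctgacgGCGCATGCgtgcgcccagc
ATP5MG (chr11:118272050-118272079, + strand): gcaggttcaggGCGCATGCgcatttccgct
NDUFB5 (chr3:179322448-179322477, + strand): cgatagcgtcaCTTCCGGcgtctcaagccg
NDUFS1 (chr2:207024307-207024336, - strand): ggctggggccaCTTCCGGcggaactgcggg
UQCRH (chr1:46769313-46769342, + strand): agtgtgccgcaCTTCCGGccagatcgccgg
COX8A (chr11:63742063-63742092, + strand): cagctccagaaCTTCCGGccagcgcagcca
COX6B1 (chr19:36139202-36139231, + strand): acctctctcagCTTCCGGctggtagtagtt

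Of the genes listed, NDUFA8 had H3K27ac alone and COX6B1 neither mark, and all others had an H3K4me3 peak. The stretch shown for NDUFV3 lies at its outer start, 13665 bp from the canonical one. WDR4 starts 76 bp from this outer start on the opposite strand. Members that hold the ETS word and are not shown include NDUFA1, NDUFB7 and COX7A2L, which had neither mark. NDUFB5, with the highest H3K4me3 value of the members, and COX8A, with the second highest H3K27ac value, hold the ETS word with its first base at -19 and -18 from the start.

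The YY1 word includes ATG, and in 4 of the 5 members that hold it this ATG is the annotated start codon, so that the word runs over the beginning of the coding sequence. The sites show this arrangement within 30 bases, with the word in capitals. NDUFA7 had both marks and NDUFA9, NDUFS4 and SDHB had neither. At the outer start the YY1 word was present in 1 of the 48 members with H3K4me3 (2.08%, 0.0527 to 11.1). It was present in 4 of the 37 without (10.8%, 3.03 to 25.4), beside 3.13% and 1.08% of all promoters with and without this mark. With the start of the canonical transcript it was present in 10 members (11.8%, 5.79 to 20.6), beside 2.81% of all promoters. These were 5 of the 48 members with H3K4me3 at the outer start and 5 of the 37 without.
NDUFA7 (chr19:8386227-8386256, - strand): atcgcggacggAAGATGGCGtccgccaccc
NDUFA9 (chr12:4758279-4758308, + strand): gattgtgggaaAAGATGGCGgctgccgcac
NDUFS4 (chr5:52856479-52856508, + strand): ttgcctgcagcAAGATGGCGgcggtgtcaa
SDHB (chr1:17380499-17380528, - strand): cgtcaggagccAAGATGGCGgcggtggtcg

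**Figure D5:**
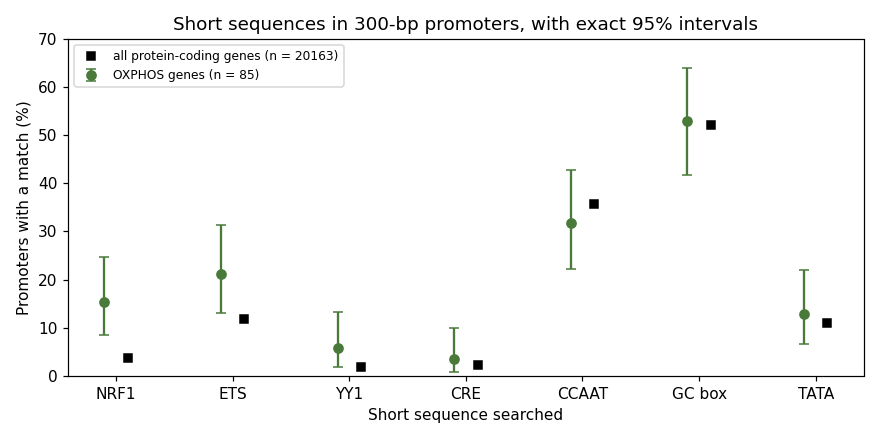
Share of promoters (300 bases around the start, percent, vertical axis) that hold each of 7 short words, for the respiratory subunit genes and for all protein-coding genes. Circles are the members with exact 95% intervals and squares all genes; the NRF1 word is found in 15.3% of members and 3.76% of all promoters, and the GC box in 52.9% and 52.1%.

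The GC content of the members' promoters was close to that of all genes, with a median of 59.0% (interquartile range 53.0 to 64.0) beside 60.3% (50.7 to 68.3). The ratio of observed to expected CpG dinucleotides had a median of 0.793 (0.649 to 0.925), beside 0.694 (0.314 to 0.883). Its lower quartile was thus higher in the members than over all genes. Members with and without H3K4me3 had medians of 0.838 and 0.765, whereas all genes with and without it had 0.835 and 0.466. The 6 genes COX6A2, COX6B2, COX7A1, COX7B2, COX8C and UQCRHL had a median of 0.498.

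Other genes of the pathway were examined in lists. Of 6 subunit or electron carrier genes that the symbol rule leaves out, 4 had H3K4me3, beside 38.2% of all protein-coding starts. These were the acyl carrier gene NDUFAB1 (6.3), COX4I1 (5.36), the cytochrome c gene CYCS (5.88) and the cytochrome c1 gene CYC1 (3.87), of which CYC1 also had H3K27ac. COX4I2 and NDUFA4L2 had neither mark. Of 57 assembly factor genes, 34 had H3K4me3, or 59.6% (45.8 to 72.4), beside 38.2% of all starts. H3K27ac was present at 25, or 43.9% (30.7 to 57.6), beside 23.6%. The intervals of these shares overlap those of the subunit genes. Of the 24 assembly factors of complex IV, 19 had a peak of either mark, beside 43.2% of all protein-coding starts. Examples are LRPPRC, with an H3K4me3 value of 7.2, and PET100, with 7.09. Of the 16 subunit genes of complex IV, 5 had a peak, and the difference was not tested. Those without one include the tissue-restricted COX6A2, COX6B2, COX7A1, COX7B2 and COX8C, and the marked COX4I1 is not among the 16.

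Of 14 regulators of the respiratory genes, 7 had H3K4me3 and 8 H3K27ac. GABPA and GABPB1, which encode the parts of GABP, and YY1, ESRRA, CREB1 and the coactivator gene PPARGC1B had both marks. The peaks counted at GABPA, 1 of H3K4me3 and 2 of H3K27ac, are among those counted at ATP5PF. The annotated genes overlap at their starts on opposite strands, and these peaks cannot be assigned to either gene from these lists. The gene NRF1 itself had H3K27ac alone (5.12), as had SP1, and TFB2M, a factor of mitochondrial transcription, had H3K4me3 alone with 8.78. No peak lay at PPARGC1A, PPRC1, TFAM, TFB1M or POLRMT.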

How the data were processed

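ChIP-seq was measured in 1 library each of H3K4me3 and H3K27ac of untreated H2087 cells. The authors aligned reads to hg19 with Bowtie 1.1.1 and called peaks with MACS2 2.1.0, and SAMtools 1.2, Picard 1.118, bcl2fastq 1.8.4 and ChIPseeker 1.6.6 are named in the submitters' processing notes. The methods name normalization as the use of the input. Whether it served as the control in peak calling, the calling threshold and the treatment of duplicates are not given in the sources used here. The last column of the deposited lists, which has no header, was read as −log10 of the q-value per summit, because it was never negative and began at 1.306 (H3K4me3) and 1.303 (H3K27ac), just above the 1.301 of a q of 0.05. This value grows with depth, which is unknown, so values are compared within a list.

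Distinct intervals were taken as peaks with their highest value, 18585 for H3K4me3 and 24096 for H3K27ac. Genes came from GENCODE 44 mapped to hg19, positions are 1-based, and promoter letters were read from the GRCh37 assembly of the same build. A start was marked when a peak edge lay within 1 kb of the outer 5′ end of the gene. The members and all lists were chosen with earlier results of these data known. Named with values were, per mark, the 5 members highest in −log10 q and the 3 with the widest peak, the 3 members with the most peaks, the members with H3K27ac alone, on chromosomes X and 18, or of the core and F1 subunits, complex II and the isoform pairs; other values are examples chosen after they were seen. Some items are not reported here by name, though the counts include all members. Python 3.11.15, NumPy 2.4.6, SciPy 1.17.1 and Matplotlib 3.10.9 were used, and the counting was tested on simulated data. The alternatives were other distances, starts, peak filters, promoter windows and subsets of members.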

Additional observations from a re-analysis of the deposited data

How the results depend on the processing

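Of 72 values under alternative settings for 12 results, 62 stayed within tolerance, which was the exact interval for shares, 10 points for percentiles and a factor of 1.5 for widths, and 10 moved. With peaks within 500 bp, H3K4me3 was present at 41.2% of members (30.8% of all starts), both marks at 18.8% (12.6%), and the median H3K27ac percentile was 71.4. With peaks at or above the median −log10 q of their list, H3K4me3 was present at 42.4% (26.8% of all starts) and both marks at 20.0% (10.0%). With a −log10 q of at least 5, H3K4me3 was present at 16.5% (10.7%), H3K27ac at 8.24% (3.53%) and both at 2.35% (1.56%). These settings keep fewer peaks by construction. With peaks within 1 kb joined, 81.6% of H3K4me3 centres lay downstream and the median widest H3K27ac peak was 640 bp. The canonical transcript start, an alternative chosen after seeing the data, gave 6 of the values, which stayed within their intervals, although the YY1 word went from 5.88% to 11.8% of members (2.81% of all promoters). No paired analysis was possible because the marks had a single library each, and for the same reason no replicate could be left out. Depth is unknown, so the shares are limited by what was called in these libraries.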
